A study of Mus musculus with 57 samples.

Results

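The wild-type response to lipopolysaccharide (LPS) was examined in 12 samples of brain CD11b-positive cells, 6 labelled ns and 6 labelled LPS, which come from 13 of the 17 wild-type (WT) libraries and of the 33 libraries in all of the LPS experiment. The series as a whole holds 57 libraries. The samples were chosen by the levels of Saa3 and P2ry12 in this same contrast: library number 2 of each WT group and set was left out because its Saa3 and P2ry12 levels went against its label, and WT LPS 8 and 9, whose counts differed by a chi-square per degree of freedom of 1.86 against at least 19.5 for other replicate pairs, were summed and counted as 1 sample. Because of that choice, the WT fold changes and call counts below are a description of concordant libraries and carry no test. The 16 libraries of P2RY12-deficient (KO) littermates, 8 ns and 8 LPS, were not used in the choice and none of them was left out, so the tests of an LPS effect are those within KO.

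The treated mice, WT and P2RY12-deficient littermates alike, had received LPS at 1 mg/kg into the peritoneum. The labels do not spell out ns, nor do they give the strain, age or time after injection, the part of P2ry12 that was deleted, or whether each library is a separate animal. The p-values therefore measure the spread between these samples, which may be technical. Polyadenylated RNA of cells labelled microglia was sequenced on the NovaSeq platform. CD11b is also carried by neutrophils, monocytes and border macrophages, so that these cells could be in the preparation.

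LPS is a cell wall component of Gram-negative bacteria that is sensed by Toll-like receptor 4 with its partners CD14 and MD-2. The adaptor MyD88 leads from the receptor to NF-κB and the genes of TNF, interleukin-1 and the chemokines, and the adaptor TRIF leads to type I interferon, which acts back on the cell through its receptor to raise antiviral genes. Resting microglia are known by a set of homeostatic genes, among them the purine receptor P2ry12, Tmem119, Siglech and the transcription factor Sall1, which inflammatory stimuli lower.

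The kept samples held 17.97 to 52.4 M counts (M for 1e6), except WT ns 4 with 168.4 M. WT LPS 7 stood apart: mitochondrial genes took 6.74% of its counts against 0.787% to 1.81% in the other kept samples, its levels correlated with those of the other LPS samples at 0.869 to 0.882, and its summed ribosomal protein genes reached 73830 CPM (counts scaled to a total of 1 M with TMM factors) against 14090 to 15990 CPM in the other LPS samples. WT ns 3 and WT ns 8 carried the most neutrophil RNA of the ns samples, with summed neutrophil markers of 21770 and 20320 CPM against 1913 to 5651 CPM in the other 4. WT LPS 7 had the highest neutrophil sum of the LPS samples, at 16270 CPM against 3757 to 5848 CPM, and the highest monocyte sum of the kept samples, at 3349 CPM against 888.4 to 1673 CPM in the other LPS samples. WT differences that leaving out WT LPS 7, or these 3 samples together, moved by over 1.5 times are given with and without them. The granule genes Mpo, Elane, Epx and Fcnb are an exception, given only with 1 sample left out at a time. WT ns 2 to 4 and LPS 2 to 4 form library set 1, and WT ns 6 to 8 with LPS 5, LPS 7 and the summed LPS 8 and 9 form set 2. The labels of these libraries give no sex, but Xist, transcribed from the inactive X chromosome, lay at 0.680 to 1.88 CPM in set 1 and at 962 to 1326 CPM in set 2, and the Y-linked gene Kdm5d at 42.64 to 50.03 CPM in set 1 and at most at 0.141 CPM in set 2, so library set and sex cannot be told apart.

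The targeted gene P2ry12 was checked first. In KO its level was 585, 654 and 1243 CPM (lowest, median and highest of 8 libraries) without LPS and 84.2, 98.5 and 154.1 CPM with it. The kept WT samples had 3516, 4248 and 5406 CPM in the 6 ns samples and 400.3, 506 and 1063 CPM in the 6 LPS samples. Within each treatment the KO libraries thus lay below every kept WT sample, with transcript remaining, and since the deleted part is not given the remaining level is a limited check of the deletion. The left-out libraries labelled WT ns 1 and WT ns 5 had P2ry12 at 481 and 927.4 CPM and Saa3 at 1781 and 2491 CPM, levels of the LPS samples, and those labelled WT LPS 1 and WT LPS 6 had P2ry12 at 4461 and 12150 CPM and Saa3 at 1.59 and 3.21 CPM. These left-out libraries were also placed by the 3858 genes other than Saa3 and P2ry12 whose kept LPS and ns samples did not overlap. WT ns 1 was nearer to the LPS median for 3713 of these genes and WT ns 5 for 3347, against their labels. WT LPS 1 was nearer to it for only 176, also against its label. WT LPS 6 was nearer to the LPS median for 2275, most of the 3858 but fewer than in any KO LPS library. By this measure WT LPS 6 lay between the groups, and its label was neither borne out nor contradicted. Mitochondrial genes took 7.46% of the counts of WT LPS 6, and its erythrocyte markers summed to 22310 CPM.

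The response took in a large share of the transcriptome. In the WT fit, 4644 of 14724 genes had an adjusted p under 0.05 (31.5%), the rule for a called gene throughout, with 2100 higher (14.3%) and 2544 lower (17.3%) in the LPS samples. Every LPS sample lay above every ns sample for 1696 genes (11.5%) and below for 2164 (14.7%). Leaving out WT LPS 7 raised the count to 7381 of 15017 genes (49.2%), with 3676 higher (24.5%) and 3705 lower (24.7%). Without WT LPS 7, WT ns 3 and WT ns 8 it was 7122 of 15034 genes, 3526 higher and 3596 lower. In KO, 3534 of 14796 genes passed (23.9%), of which 1780 rose (12.0%) and 1754 fell (11.9%). KO ns 5 and KO ns 6 lay between the groups, nearer to the LPS median for 47.2% and 61.9% of the 3858 genes against 2.46% to 6.92% in the other KO ns libraries, and without them 4516 genes passed in KO, 3189 of them shared with the full fit.

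WT and KO share no library, so that the KO fit asks the same question in other samples. Of the 4541 genes called in WT and tested in KO, 2686 (59.1%) also passed in KO in the same direction, 1299 higher and 1387 lower, and 0 passed in the opposite direction. These make up 77.2% of the 3478 KO calls that were tested in WT. The sign was the same for 4510 of the 4541 (99.3%). The median log2 fold change over all genes was -0.00463 in WT and 0.0163 in KO. In bulk samples, a lower level from fewer cells of a type and from less RNA per cell cannot be told apart.

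**Figure D1:**
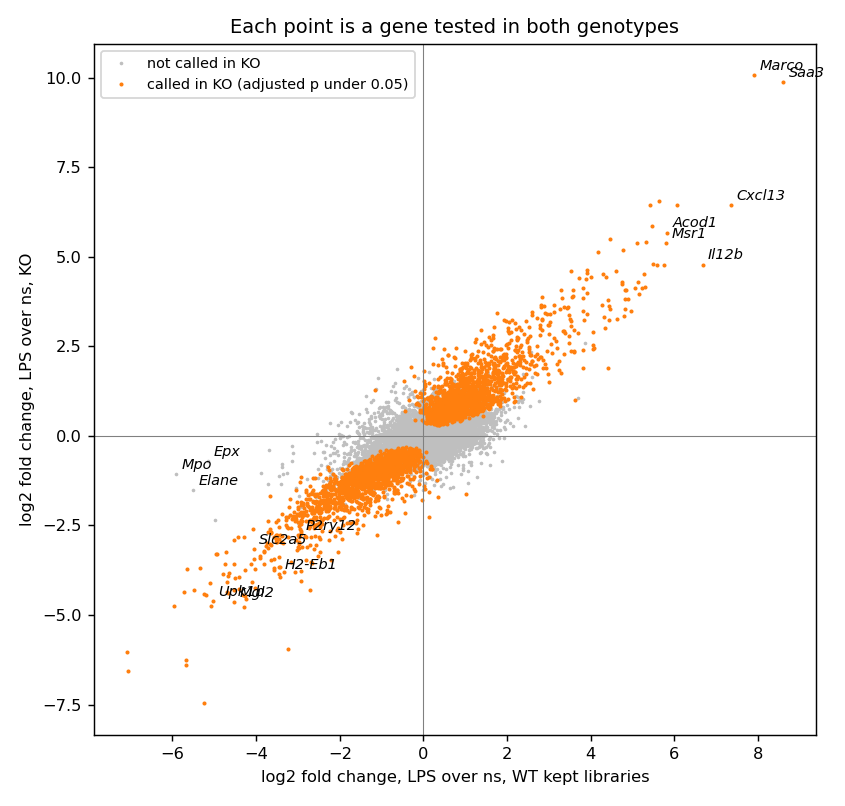
Log2 fold change of LPS over ns for every gene tested in both genotypes, with the kept WT samples on the x axis and the KO libraries on the y axis. Genes called in KO are orange and the others grey. The genes called in KO lie mostly in the upper right and lower left, with Saa3 and Marco at the upper end.

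Below, a level is given as the lowest, median and highest of the 6 samples of a group in CPM, a WT difference as log2 fold change of LPS over ns ± standard error, and the KO test as the same quantity with edgeR's quasi-likelihood adjusted p (Benjamini-Hochberg). A value in brackets without a named sample, or without the 3 samples, is the same difference with these left out. Where leaving out WT LPS 7, or WT LPS 7, WT ns 3 and WT ns 8 together (the 3 samples, a choice made after the data were seen), moved a list's count by over 1.5 times, that count follows the first. Each list count stands beside the all-gene shares, 14.3% higher and 17.3% lower in WT and 12.0% and 11.9% in KO. Without WT LPS 7 the WT shares were 24.5% and 24.7%, so a list's count could rise with the count of all genes.

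Serum amyloid A3 and the scavenger receptor Marco stood at the top of the response. Saa3, an acute-phase apolipoprotein and 1 of the 2 genes that chose the samples, was at 1.52, 2.75 and 64.3 CPM in ns and 1418, 1829 and 9720 CPM in LPS. Marco, which binds bacteria and modified lipoproteins, was at 0.575, 1.21 and 64.5 CPM in ns and 305, 1041 and 2521 CPM in LPS. For both genes the groups were far apart, with WT ns 8 the highest ns sample and the other 5 ns samples below 5 CPM. The WT difference was 8.60 ± 1.16 (10.08 without WT ns 8) for Saa3 and 7.90 ± 1.57 (7.25 without WT LPS 2, 8.55 without WT LPS 5, 10.26 without WT ns 8) for Marco. In KO the levels were 0.861, 1.65 and 3.24 CPM in ns and 1024, 1301 and 3698 CPM in LPS for Saa3 and 0.279, 0.708 and 0.856 CPM and 566, 629 and 1071 CPM for Marco. Saa3 rose by 9.87 ± 0.39 in KO (edgeR adjusted p = 9.9e-11) and Marco by 10.06 ± 0.29 (edgeR adjusted p = 1.5e-12).

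Other genes near the top code for secreted and surface proteins of varied function. The B-cell chemokine Cxcl13 went from 0.0429, 0.194 and 0.619 CPM to a lowest and median of 7.29 and 22.8 CPM, with WT LPS 7 the highest, a difference of 7.35 ± 0.83 (6.44 without WT LPS 7), and rose by 6.43 ± 0.59 in KO (edgeR adjusted p = 9.6e-07). Il12b, the p40 subunit of interleukin-12 and interleukin-23, was at 0, 0.0800 and 0.310 CPM in ns and 2.09, 4.24 and 98.0 CPM in LPS, where the highest value is WT LPS 7, and differed by 6.67 ± 1.05 (5.43 without WT LPS 7), with 4.77 ± 0.62 in KO, edgeR adjusted p = 3.1e-05. The groups did not overlap for either cytokine. Msr1, the class A scavenger receptor, was at 12.03, 20.3 and 67.2 CPM and 551, 1011 and 4200 CPM, differed by 5.80 ± 0.59 and rose by 5.38 ± 0.23 in KO (edgeR adjusted p = 1.9e-10). Plet1, a surface protein, Adamtsl4, a matrix protein, the lipase Lipg and Susd2 also had every LPS sample above every ns sample, with WT differences of 6.06 ± 0.84 (7.11 without WT ns 8), 5.63 ± 0.81 (6.52 without WT ns 8), 5.41 ± 0.81 (6.52 without WT ns 8) and 5.33 ± 0.67 (6.02 without WT ns 8). Each rose in KO, by 6.44 ± 0.69, 6.57 ± 0.71, 6.44 ± 0.66 and 5.42 ± 0.50 (edgeR adjusted p at most 4.7e-06). Strip2 differed by 5.46 ± 1.09 (4.80 without WT LPS 3, 4.58 without WT LPS 8+9, 6.32 without WT ns 8) with an overlap between the groups, its lowest LPS sample at 2.47 CPM and WT ns 8 at 3.37 CPM, and it rose by 5.85 ± 0.84 in KO (edgeR adjusted p = 8.5e-05).

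**Figure D2:**
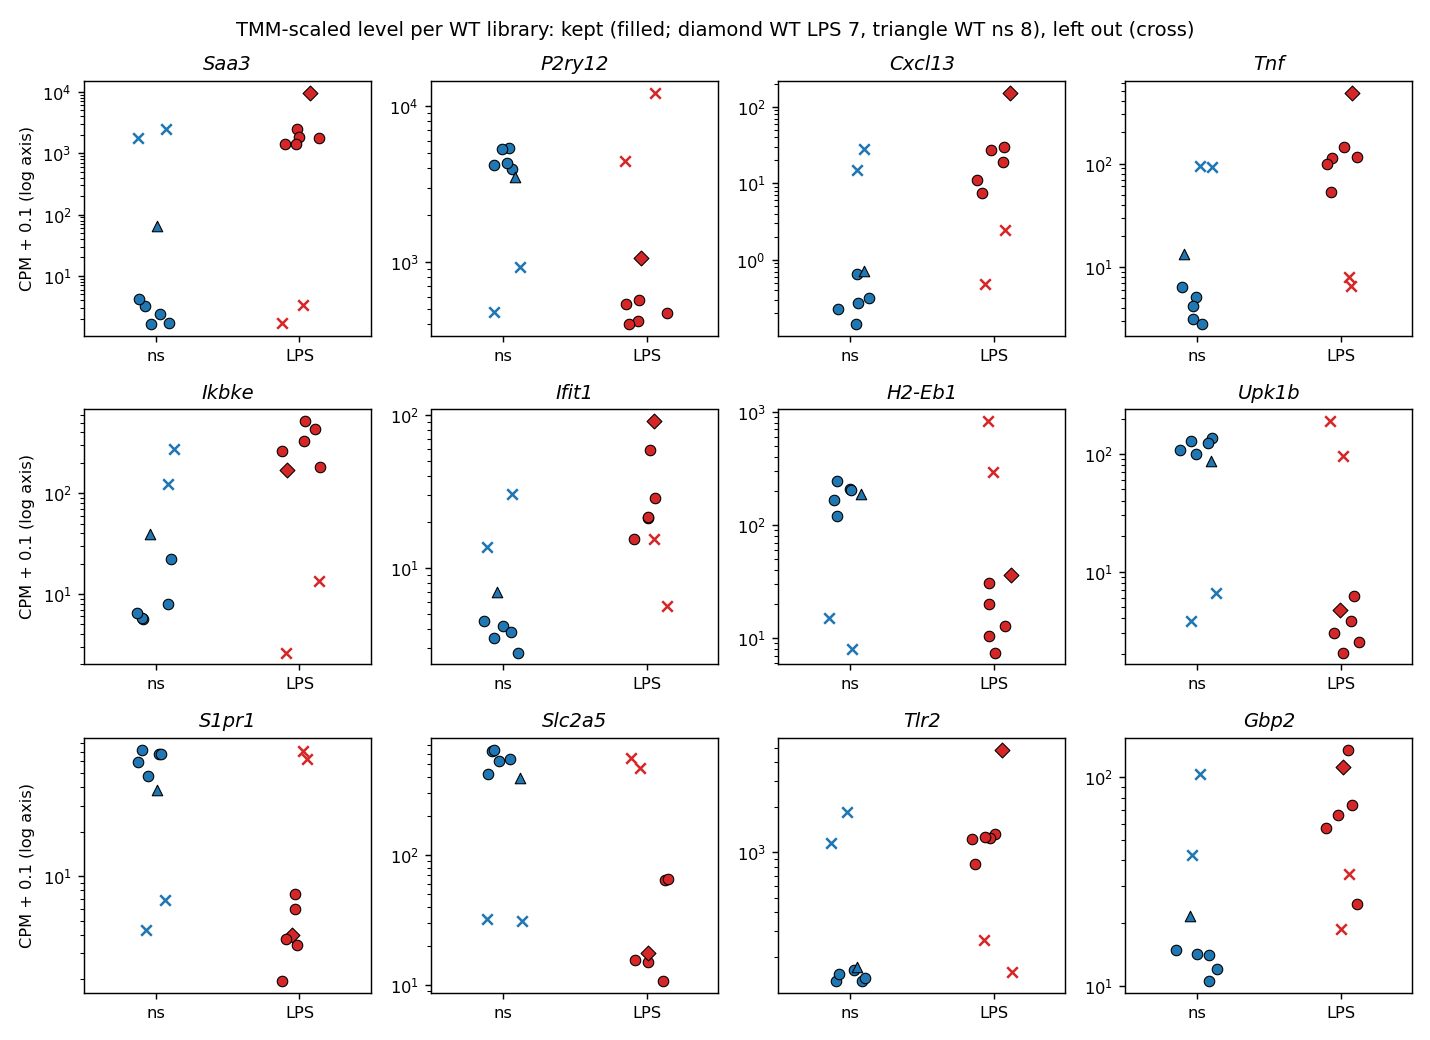
Level of 12 genes in every WT library, as CPM plus 0.1 on a log axis. Filled points are the kept ns and LPS samples, diamonds WT LPS 7, triangles WT ns 8 and crosses the left-out libraries. The kept LPS samples lie above the ns samples for the genes of the acute and interferon responses and below them for the homeostatic and MHC class II genes, and most crosses lie with the other treatment's points.

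Among 28 genes of LPS sensing, 8 were higher and 3 lower in the WT LPS samples, with a median log2 fold change of 0.201, and in KO 8 rose and 2 fell (median 0.294). Without WT LPS 7 the WT counts were 14 higher and 6 lower, in a fit where 24.5% of all genes were higher and 24.7% lower. The receptor Tlr4 itself was at 82.0, 101 and 126 CPM in ns and 83.1, 106.7 and 326 CPM in LPS and was not called in either genotype (0.41 ± 0.30 in WT and -0.05 ± 0.32 in KO, edgeR adjusted p = 0.94). Its partner Ly96, which codes for MD-2, was not called either. Tlr2, the receptor of bacterial lipoproteins, was at 138, 150.5 and 172 CPM and 841, 1261 and 4847 CPM without overlap, differed by 3.47 ± 0.40 and rose by 2.80 ± 0.26 in KO (edgeR adjusted p = 1.0e-06). Its partner Tlr1 was higher by 2.27 ± 0.48 (1.59 without WT LPS 7) and rose by 1.39 ± 0.22 in KO (edgeR adjusted p = 2.3e-04). Cd14, the LPS co-receptor, was at 202, 247 and 310.0 CPM and 438, 659 and 3720 CPM, a difference of 2.03 ± 0.51 (1.33 without WT LPS 7) with 1.04 ± 0.23 in KO (edgeR adjusted p = 0.0031). Irak3, an inhibitory kinase of the pathway, was higher by 2.30 ± 0.43 (3.08 without the 3 samples) and rose by 2.22 ± 0.23 in KO (edgeR adjusted p = 2.9e-06). The flagellin receptor Tlr5 was lower by 1.22 ± 0.30 and fell by 0.88 ± 0.20 in KO (edgeR adjusted p = 0.0046).

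Of 21 genes of the NF-κB system, 12 were higher and 0 lower in WT (median 0.809), and 10 rose and 0 fell in KO (median 1.09). Among the called genes were inhibitors as well as subunits of the factor. Ikbke, an IκB kinase relative that also acts in interferon induction, was at 5.49, 7.12 and 39.5 CPM and 168, 297 and 519 CPM with no overlap and differed by 4.45 ± 0.63 (5.10 without WT ns 8), with 5.49 ± 0.47 in KO, edgeR adjusted p = 4.6e-07. Bcl3, an atypical IκB protein, was higher by 2.59 ± 0.34, and the inhibitors Nfkbia, Tnfaip3 (A20) and Nfkbiz by 2.24 ± 0.21, 2.24 ± 0.20 and 2.21 ± 0.27. In KO these 4 genes rose by 3.47 ± 0.51, 1.58 ± 0.21, 1.99 ± 0.20 and 1.95 ± 0.18, with edgeR adjusted p at most 1.1e-04. Nfkb1 and Rela, which code for the p50 precursor and p65, differed by -0.03 ± 0.16 and -0.37 ± 0.23 in WT and were called in neither genotype, whereas Nfkb2 and Relb were higher by 1.28 ± 0.16 and 1.14 ± 0.16 and rose in KO (edgeR adjusted p = 0.017 and 0.029).

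The promoters of some of these genes hold matches to the κB motif, the DNA element that NF-κB binds. Sequences are given for Tlr2, Ier3 and P2ry12, chosen among the named genes with the matches known, because each holds a match. The windows of Irak3, Ikbke, Bcl3 and Tnf, also higher in the LPS samples, hold 0 matches. They are the 250 bases upstream of the RefSeq start site on the GRCm38.p6 build, 5′ to 3′ on the gene's strand, with the κB matches in capitals. The search covered both strands, and a match is a description and no evidence of binding.
Tlr2: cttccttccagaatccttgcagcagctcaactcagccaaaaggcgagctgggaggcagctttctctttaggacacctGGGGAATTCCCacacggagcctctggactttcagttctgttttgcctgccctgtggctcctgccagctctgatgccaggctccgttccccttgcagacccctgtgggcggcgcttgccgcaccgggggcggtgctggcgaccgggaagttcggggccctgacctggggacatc
Ier3: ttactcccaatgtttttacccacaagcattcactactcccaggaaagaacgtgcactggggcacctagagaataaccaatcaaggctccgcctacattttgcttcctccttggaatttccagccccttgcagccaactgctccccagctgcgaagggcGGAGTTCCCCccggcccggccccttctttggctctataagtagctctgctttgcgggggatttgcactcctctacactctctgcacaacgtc
P2ry12: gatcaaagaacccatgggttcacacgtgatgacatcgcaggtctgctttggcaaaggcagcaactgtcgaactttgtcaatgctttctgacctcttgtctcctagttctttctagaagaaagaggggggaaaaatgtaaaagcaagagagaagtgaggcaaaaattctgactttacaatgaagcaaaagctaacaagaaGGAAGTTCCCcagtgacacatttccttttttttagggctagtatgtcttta
The Tlr2 window (chr3:83841609-83841858, minus strand) holds 2 matches that overlap, the Ier3 window (chr17:35821463-35821712, plus strand) 1 match and the P2ry12 window (chr3:59262986-59263235, minus strand) 1 match, so that a match stands upstream of genes that were higher and of a gene that was lower. Of the 10309 tested genes with a promoter in the table, 10.3% hold a κB match in this window. Ier3, an immediate early gene, was at 2.33, 3.96 and 6.99 CPM in ns and 23.3, 45.3 and 120.4 CPM in LPS without overlap, differed by 3.60 ± 0.44 and rose by 2.95 ± 0.25 in KO (edgeR adjusted p = 4.2e-07).

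TNF and interleukin-1 genes were higher on both the agonist and the antagonist side. Of 21 genes on the list, 10 were higher and 1 lower in WT (median 0.762), and 8 rose and 1 fell in KO (median 0.67). Tnf was at 2.67, 4.56 and 13.1 CPM and 52.4, 114 and 486 CPM with no overlap, differed by 4.75 ± 0.57 and rose by 4.23 ± 0.24 in KO (edgeR adjusted p = 7.1e-09). Il1b was at 18.7, 42.4 and 57.2 CPM and 82.8, 102 and 2748 CPM, where WT LPS 7 is far above the other 5 LPS samples, and differed by 3.00 ± 0.93 (1.57 without WT LPS 7), with 2.83 ± 0.41 in KO, edgeR adjusted p = 9.2e-05. WT LPS 7 also had the highest neutrophil and monocyte sums of the LPS samples, and their part in the cytokine and chemokine values was not tested. Il1a differed by 2.11 ± 0.74 (0.96 without WT LPS 7) in WT and by 1.19 ± 0.34 in KO (edgeR adjusted p = 0.017). The decoy receptor Il1r2 was at 2.503, 6.60 and 33.5 CPM and 178.4, 306 and 1056 CPM without overlap, a difference of 5.11 ± 0.75 (5.95 without the 3 samples), with 5.37 ± 0.52 in KO (edgeR adjusted p = 1.6e-06). The receptor antagonist Il1rn and the interleukin-18 binding protein Il18bp were higher by 1.83 ± 0.57 (2.75 without the 3 samples) and 1.36 ± 0.23 and rose in KO (edgeR adjusted p = 0.0065 and 6.9e-07). Nlrp3, the inflammasome sensor, was higher by 0.93 ± 0.15 in WT, with 0.45 ± 0.25 in KO (edgeR adjusted p = 0.23).

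Il6 went the other way from Tnf once WT LPS 7 was set aside. It was at 5.55, 6.73 and 8.71 CPM in ns and at 2.01, 3.09 and 58.9 CPM in LPS, where the highest value is WT LPS 7 and the next LPS sample stood at 4.10 CPM. The WT difference was 0.13 ± 0.80 (-1.19 without WT LPS 7), and without that sample every LPS sample lay below every ns sample. In KO, Il6 fell by 2.26 ± 0.36 (edgeR adjusted p = 2.0e-04). Il10, Il12a and Il23a stayed below 1 CPM in every kept sample and were not tested.

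Receptors of other cytokines changed in each direction. Of 20 genes of other cytokines and their receptors, 9 were higher and 3 lower in WT (9 and 5 without the 3 samples), and 8 rose and 2 fell in KO. Il15ra, the interleukin-15 receptor alpha chain, was at 18.7, 22.8 and 36.2 CPM and 105, 198 and 312 CPM, differed by 3.05 ± 0.25 and rose by 2.58 ± 0.25 in KO (edgeR adjusted p = 1.7e-06). Its ligand Il15 was lower by 0.79 ± 0.21 in WT (-0.84 ± 0.30 in KO, edgeR adjusted p = 0.056). The shared gamma chain Il2rg and the interleukin-4 receptor Il4ra were higher by 2.27 ± 0.20 and 1.51 ± 0.16 and rose in KO (edgeR adjusted p = 1.8e-07 and 4.3e-05). Il7r, the interleukin-7 receptor, was at 29.5, 49.6 and 53.03 CPM and 3.59, 7.84 and 10.2 CPM without overlap, lower by 2.63 ± 0.26, and fell by 2.56 ± 0.29 in KO (edgeR adjusted p = 8.4e-06).

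The chemokine list held 19 tested genes, of which 11 were higher and 2 lower in WT (median 2.53), or 13 and 5 without WT LPS 7 (median 1.58), and 11 rose and 3 fell in KO (median 1.19). Ccl2, which draws monocytes, was at 1.32, 2.17 and 3.41 CPM and 11.96, 34.04 and 779 CPM, where the highest value is WT LPS 7, and differed by 5.29 ± 1.02 (3.98 without WT LPS 7), with 4.16 ± 0.63 in KO, edgeR adjusted p = 1.3e-04. Ccl5 was at 18.2, 23.8 and 36.1 CPM and 139.9, 177.6 and 385 CPM and differed by 3.01 ± 0.29 (KO 3.09 ± 0.35, edgeR adjusted p = 7.3e-06). The groups did not overlap for either gene. Cxcl10, an interferon-induced ligand of T-cell receptor CXCR3, was higher by 4.82 ± 0.82 (4.06 without WT LPS 7) and rose by 3.83 ± 0.60 in KO (edgeR adjusted p = 1.9e-04). Cxcl2, a neutrophil attractant, was higher by 5.05 ± 0.66, and Cxcl16 by 2.95 ± 0.37 (KO 4.14 ± 0.43 and 2.36 ± 0.19, edgeR adjusted p = 3.5e-06 and 2.0e-07). Ccl24, an eosinophil attractant, was at 5.36, 6.86 and 8.74 CPM and 0.107, 0.462 and 1.48 CPM, lower by 3.58 ± 0.43, and fell by 3.43 ± 0.47 in KO (edgeR adjusted p = 5.5e-05). Ccl3 and Ccl4 depended on WT LPS 7, at 1816 and 476 CPM there, with WT differences of 3.69 ± 1.08 (2.24 without WT LPS 7) and 2.44 ± 1.12 (0.78 without WT LPS 7), and neither passed in KO (edgeR adjusted p = 0.053 and 0.78).

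Some acute-phase, nitric oxide and itaconate genes were higher. Of 19 acute-phase and antimicrobial genes 6 were higher and 0 lower in WT (median 1.26, or 0.602 without WT LPS 7) and 12 were higher without the 3 samples, and 6 of 18 rose in KO and 0 fell. Ceruloplasmin, the copper-carrying ferroxidase Cp, was at 14.5, 24.6 and 48.9 CPM and 142.4, 269.7 and 584 CPM, differed by 3.58 ± 0.38 and rose by 4.07 ± 0.27 in KO (edgeR adjusted p = 4.1e-08). The neutrophil and acute-phase gene Lcn2 overlapped between the groups, with WT ns 3 the highest ns sample, at 21.4, 201 and 1304 CPM and 710.0, 1280 and 2385 CPM, was not called in WT at 1.35 ± 0.86 (3.31 without the 3 samples), but was called with the 3 samples left out, and rose by 2.13 ± 0.67 in KO (edgeR adjusted p = 0.028). Of 11 genes of nitric oxide, arginine and itaconate metabolism 6 were higher and 1 lower in WT, and 5 of 10 rose and 2 fell in KO. Acod1, the enzyme that makes itaconate, was at 0.571, 1.33 and 11.2 CPM and 18.7, 102 and 389.6 CPM without overlap and differed by 5.82 ± 0.83 (6.67 without WT ns 8), with 5.67 ± 0.42 in KO, edgeR adjusted p = 1.1e-07. Gch1, the first enzyme of tetrahydrobiopterin synthesis, differed by 1.68 ± 0.20 (KO 1.42 ± 0.17, edgeR adjusted p = 1.2e-05). Inducible nitric oxide synthase Nos2 was at 0, 0.00919 and 0.310 CPM in ns and 0.704, 7.27 and 14.8 CPM in LPS and did not pass the filter on low counts in KO, while Arg1, which competes for its substrate, was higher by 4.82 ± 0.39 and rose by 3.54 ± 0.48 in KO (edgeR adjusted p = 5.1e-05).

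Enzymes of prostaglandins and leukotrienes were among the lower genes of a list of 16, of which 3 were higher and 3 lower in WT (8 and 4 without the 3 samples), and 6 rose and 3 fell in KO. The all-gene shares were 14.3% higher and 17.3% lower in WT, and 12.0% and 11.9% in KO. Ltc4s, leukotriene C4 synthase, was at 140.5, 164 and 283 CPM and 14.5, 34.5 and 42.4 CPM, lower by 2.49 ± 0.26, and Hpgds, which makes prostaglandin D2, was at 779, 1026 and 1255 CPM and 180.3, 278 and 427 CPM, lower by 1.76 ± 0.22. Neither pair of groups overlapped, and the genes fell by 2.06 ± 0.22 and 1.05 ± 0.21 in KO (edgeR adjusted p = 4.1e-06 and 0.0017). Ptges, the inducible prostaglandin E synthase, was higher by 2.80 ± 0.69 (4.13 without the 3 samples) and rose by 3.61 ± 0.78 in KO (edgeR adjusted p = 0.0029). Ptgs2, which codes for COX-2, was at 0.821, 1.64 and 6.95 CPM and 0.482, 0.642 and 3.87 CPM and was called in neither genotype. The NADPH oxidase subunits Cyba and Ncf1 were higher by 0.76 ± 0.15 and 0.97 ± 0.17 and rose in KO (edgeR adjusted p = 0.0029 and 0.0068).

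Genes induced by interferon moved together. Of 39 on the list, 34 were higher and 0 lower in WT (median 1.55), and 37 rose and 0 fell in KO (median 2.02). Ifit1, which binds viral RNA, was at 2.68, 3.89 and 6.85 CPM and 15.5, 24.98 and 91.7 CPM with no overlap, differed by 3.12 ± 0.38 and rose by 2.73 ± 0.40 in KO (edgeR adjusted p = 9.5e-05). Ifi204, a DNA sensor, was at 15.2, 25.9 and 44.1 CPM and 140.3, 193 and 375 CPM, differed by 3.02 ± 0.25 and rose by 3.19 ± 0.26 in KO (edgeR adjusted p = 3.0e-07). The 5 list members not called in WT were Oas2, Oas3, Ifi44, Cmpk2 and Slfn1, of which Oas2, Oas3, Cmpk2 and Slfn1 rose in KO. The nucleic acid sensor Zbp1, the ISG15 protease Usp18 and the viperin gene Rsad2 were higher by 2.89 ± 0.26, 2.28 ± 0.29 and 2.05 ± 0.36 and rose in KO by 3.43 ± 0.21, 2.22 ± 0.32 and 2.60 ± 0.46 (edgeR adjusted p at most 5.5e-04). The ligand gene Ifnb1 did not exceed 1.13 CPM in any kept sample and was not tested.

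Guanylate-binding proteins and immunity-related GTPases, which attack the vacuoles of intracellular pathogens, were split. Of 16 tested, 8 were higher and 2 lower in WT (median 0.75), and 10 rose and 1 fell in KO (median 0.907). Gbp2 was at 10.4, 14.00 and 21.6 CPM and 24.6, 69.7 and 136 CPM, differed by 2.33 ± 0.29 and rose by 2.54 ± 0.24 in KO (edgeR adjusted p = 1.5e-06). Gbp7 was at 54.6, 73.2 and 84.9 CPM and 92.0, 141 and 190.4 CPM, differed by 1.01 ± 0.18 and rose by 1.62 ± 0.21 in KO (edgeR adjusted p = 2.5e-05). The groups did not overlap for either. Tgtp1 was lower by 1.31 ± 0.32 and fell by 1.38 ± 0.25 in KO (edgeR adjusted p = 6.4e-04), and it has the near-identical copy Tgtp2, so that reads could be split between them.

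For the interferon genes the element of interest is the interferon-stimulated response element, searched as GAAA, any 2 bases and GAAA on both strands. The upstream windows of Ifit1 and Gbp2 are shown because these were among the called members of their lists that hold a match, with the match in capitals.
Ifit1: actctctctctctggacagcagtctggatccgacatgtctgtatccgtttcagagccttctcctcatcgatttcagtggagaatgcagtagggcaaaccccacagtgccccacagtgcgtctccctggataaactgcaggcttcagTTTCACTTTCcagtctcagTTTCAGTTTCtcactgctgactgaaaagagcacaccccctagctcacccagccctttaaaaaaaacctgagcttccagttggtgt
Gbp2: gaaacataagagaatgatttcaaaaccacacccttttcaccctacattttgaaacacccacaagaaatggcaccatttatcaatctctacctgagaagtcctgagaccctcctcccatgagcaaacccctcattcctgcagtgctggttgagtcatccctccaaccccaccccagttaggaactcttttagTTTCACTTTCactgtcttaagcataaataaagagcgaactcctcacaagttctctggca
The Ifit1 window (chr19:34640639-34640888, plus strand) holds 2 matches and the Gbp2 window (chr3:142620413-142620662, plus strand) 1 match. Of the 10309 tested genes with a promoter in the table, 3.42% hold a match in this window.

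Signalling genes of interferon and cytokine receptors changed in each direction. Of 28 IRF, STAT and SOCS genes with their receptors, 5 were higher and 2 lower in WT (9 and 4 without WT LPS 7, 10 and 5 without the 3 samples), and 8 rose and 2 fell in KO. Over all genes tested, 14.3% were higher and 17.3% lower in WT, and 12.0% rose and 11.9% fell in KO. Socs3, the feedback inhibitor of STAT3 signalling, was at 21.1, 26.8 and 40.4 CPM and 202, 231 and 314 CPM with no overlap, differed by 3.12 ± 0.19 and rose by 3.47 ± 0.34 in KO (edgeR adjusted p = 1.8e-06). Irf7, the amplifier of type I interferon, was at 13.3, 20.1 and 30.1 CPM and 49.5, 87.7 and 175 CPM, differed by 2.23 ± 0.30 and rose by 2.68 ± 0.26 in KO (edgeR adjusted p = 1.5e-06). Stat2 and Irf9, which carry the type I interferon signal, were higher by 1.12 ± 0.33 and 0.65 ± 0.10 and rose in KO (edgeR adjusted p = 0.0016 and 5.2e-05). Irf4 was lower by 1.34 ± 0.13 and fell by 0.89 ± 0.17 in KO (edgeR adjusted p = 8.5e-04). Socs1 was called in neither genotype.

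**Figure D3:**
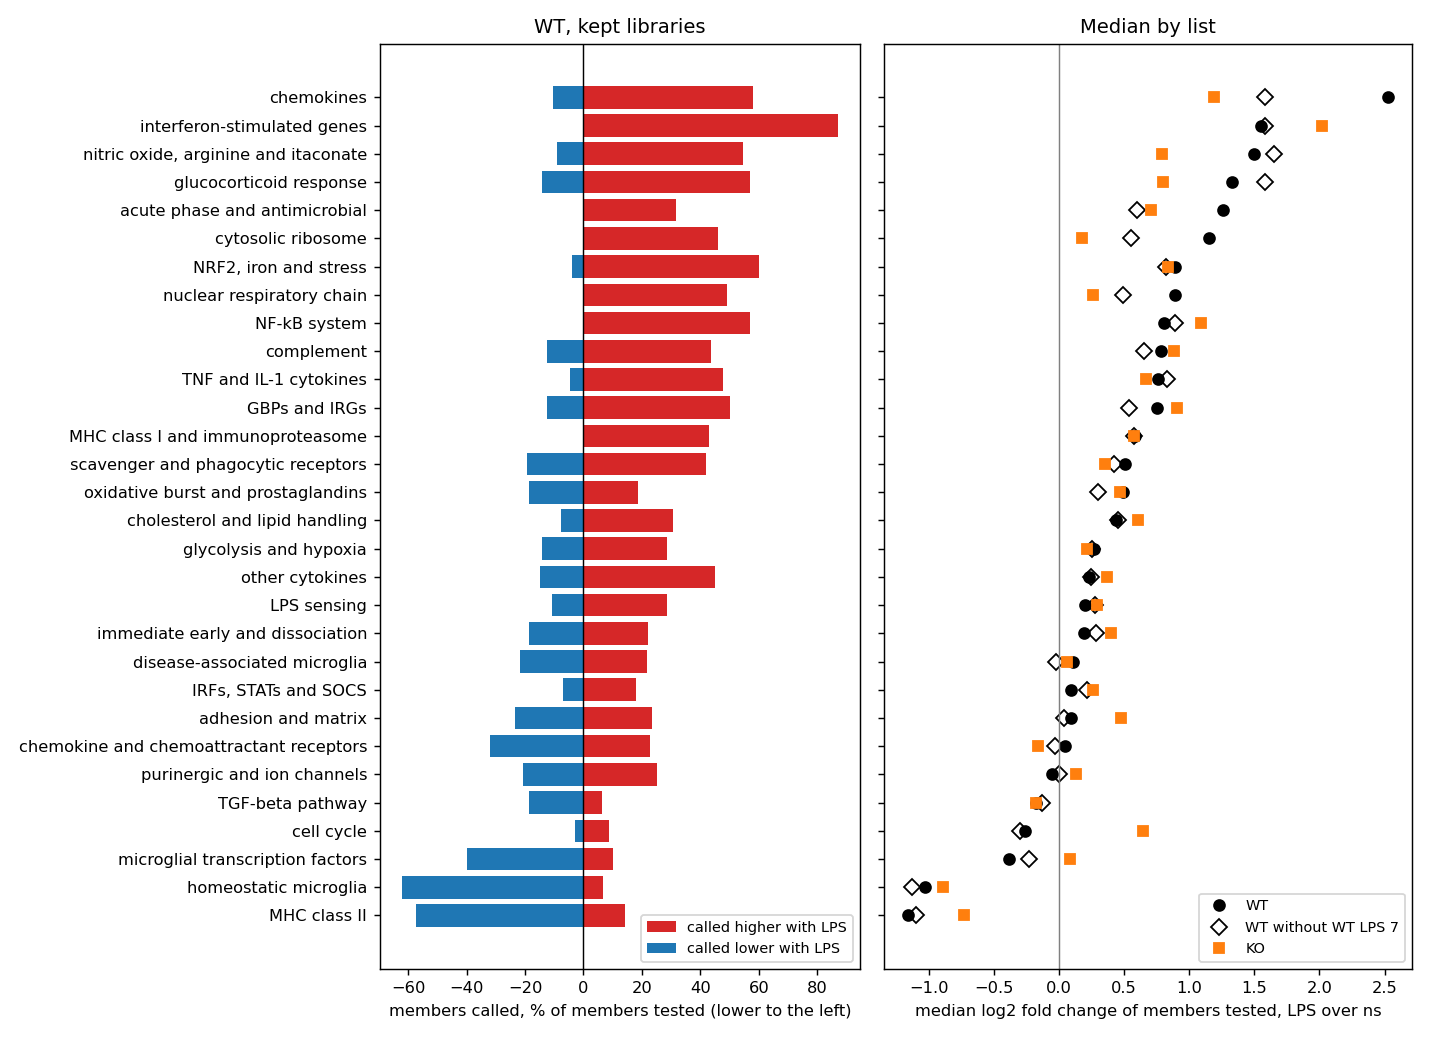
For each gene list, the percent of tested members called higher and lower in the kept WT samples (left). At right is the median log2 fold change in the kept WT samples, in WT without WT LPS 7 and in KO. The interferon list has the largest called share in WT, 34 of 39 genes. The medians of the ribosome and respiratory chain lists are lower when WT LPS 7 is left out.

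Antigen presentation split by class. Of 21 genes of MHC class I and the immunoproteasome, 9 were higher and 0 lower in WT (median 0.586), and 9 rose and 0 fell in KO (median 0.575). Nlrc5, the transactivator of class I genes, was at 23.4, 26.98 and 42.9 CPM and 18.4, 96.4 and 124 CPM, the groups overlapping only through WT LPS 7 at 18.4 CPM, and differed by 1.53 ± 0.37 (KO 2.29 ± 0.35, edgeR adjusted p = 1.4e-04). The classical class I gene H2-K1 and the proteasome activator Psme2 were higher by 1.23 ± 0.22 and 1.27 ± 0.32 and rose by 0.87 ± 0.20 and 0.93 ± 0.25 in KO (edgeR adjusted p = 0.0049 and 0.011). MHC class II genes were lower: of 14, 8 were lower and 2 higher in WT (median -1.16), and 7 fell and 2 rose in KO (median -0.733). H2-Eb1 was at 121, 197 and 243 CPM and 7.31, 16.3 and 36.4 CPM, and H2-Ab1 at 124, 183 and 224 CPM and 11.2, 21.3 and 42.0 CPM, without overlap. They were lower by 3.45 ± 0.30 and 3.01 ± 0.26 and fell by 3.87 ± 0.22 and 3.09 ± 0.24 in KO (edgeR adjusted p = 8.5e-09 and 1.8e-07). The class II transactivator Ciita was at 8.35, 11.8 and 16.9 CPM and 0, 0.628 and 2.70 CPM and fell by 2.60 ± 0.61 in KO (edgeR adjusted p = 0.0048). The list's higher members were Cd40 and Cd274 (PD-L1), co-stimulatory and inhibitory ligands, at 1.68 ± 0.39 and 1.94 ± 0.13.

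Most tested markers of dendritic and B cells were lower in the LPS samples, as most class II genes were. The summed dendritic cell markers lay at 1267 to 1715 CPM in ns and 347.1 to 852.2 CPM in LPS, and the B cell markers at 642.2 to 786.9 CPM and 140.8 to 256.0 CPM. Siglech, which microglia express at a high level, is also on the dendritic cell list. Of 12 dendritic cell markers, 8 were lower and 2 higher in WT (median -2.08), with the same counts in KO. Cd209a was at 9.38, 18.5 and 24.4 CPM and 0.0340, 0.193 and 3.10 CPM, lower by 5.24 ± 0.87 (6.79 without WT LPS 7), and fell by 7.47 ± 0.45 in KO (edgeR adjusted p = 1.2e-08). Mgl2, a lectin of dendritic cells and macrophages that is not on the dendritic cell list, was at 21.2, 34.6 and 45.1 CPM and 0.136, 1.29 and 4.01 CPM, lower by 4.52 ± 0.49, and fell by 4.65 ± 0.35 in KO (edgeR adjusted p = 1.1e-07). Of 7 tested B cell markers 6 were lower in WT and 0 higher, and 4 of 5 fell in KO, led in level by Ighm, which was at 395, 431 and 471 CPM and 61.98, 79.2 and 152.1 CPM. The defining B cell genes Ms4a1 and Pax5 did not exceed 1.27 CPM in any kept sample. The part of these cells in the class II result was not tested.

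**Figure D4:**
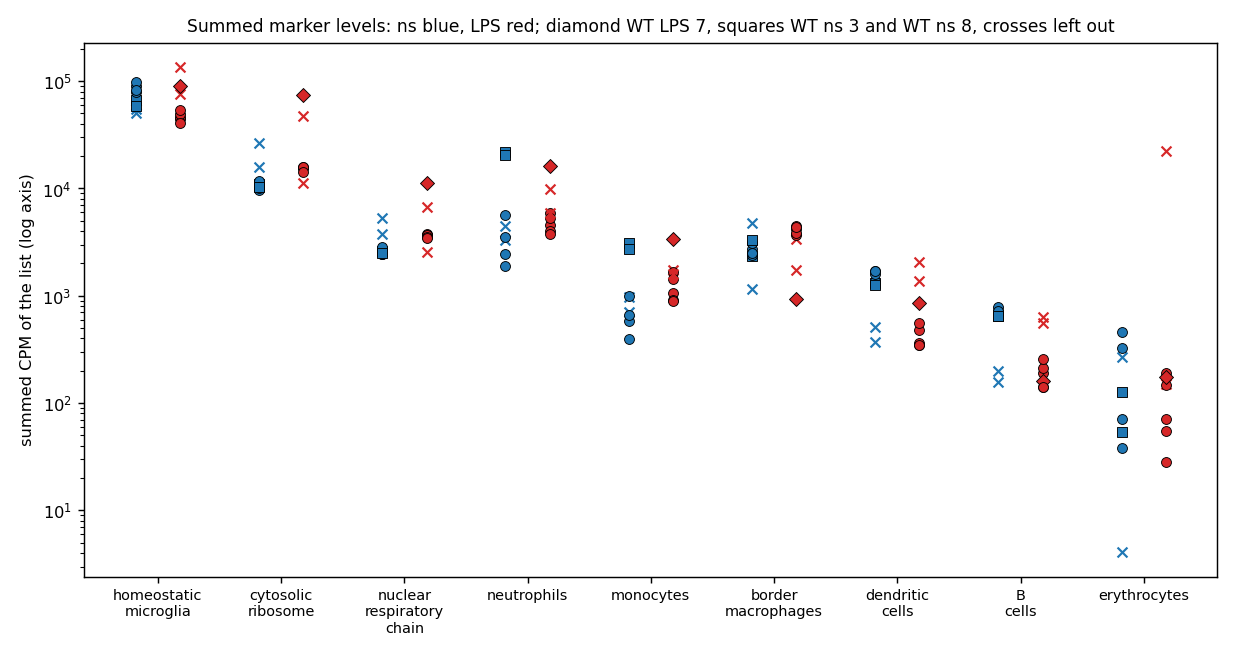
Summed CPM of the microglial, ribosomal and respiratory chain lists and of markers of other cell types in each WT library on a log axis, with ns in blue and LPS in red, the diamond WT LPS 7 and crosses the left-out libraries. Squares mark WT ns 3 and WT ns 8, which hold the highest neutrophil and monocyte sums among the ns samples, and the dendritic and B cell sums are lower in every kept LPS sample than in every kept ns sample.

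The homeostatic genes of microglia were lower as a group. Of 45, 28 were lower and 3 higher in WT (median -1.03), and 24 fell and 2 rose in KO (median -0.893). Their summed level was 58140 to 98990 CPM in the ns samples, and in the LPS samples 40450 to 53530 CPM except for WT LPS 7 at 89230 CPM, in each sample above the sum of any other marker list. P2ry12, whose values are given above, was lower by 2.94 ± 0.28 in WT, where it chose the samples, and fell by 2.77 ± 0.22 in KO, where it is the targeted gene (edgeR adjusted p = 1.8e-07). Upk1b, a tetraspanin relative, was at 88.0, 117 and 137 CPM and 1.93, 3.29 and 6.05 CPM, lower by 5.04 ± 0.27, and fell by 4.61 ± 0.23 in KO (edgeR adjusted p = 1.7e-09). The fructose transporter Slc2a5 was at 390.2, 534 and 644 CPM and 10.6, 16.5 and 64.96 CPM, lower by 4.06 ± 0.52, and fell by 3.16 ± 0.25 in KO (edgeR adjusted p = 1.8e-07). For all 3 genes every LPS sample lay below every ns sample.

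Within the homeostatic list the size of the decrease varied widely. The lysophosphatidylserine receptor Gpr34 and the lectin Siglech were lower by 2.70 ± 0.55 (3.40 without WT LPS 7) and 2.30 ± 0.25 and fell by 3.53 ± 0.55 and 2.28 ± 0.20 in KO (edgeR adjusted p = 1.8e-04 and 4.3e-07). The lipid receptor Trem2 and the TGF-β receptor Tgfbr1 were lower by 1.41 ± 0.23 and 1.15 ± 0.22 and fell in KO (edgeR adjusted p = 1.4e-04 and 0.0014). Tmem119 was at 2023, 2513 and 3741 CPM and 924, 1638 and 1991 CPM, lower by 0.74 ± 0.22 in WT, with -0.59 ± 0.22 in KO (edgeR adjusted p = 0.062). Csf1r and Cx3cr1, widely used microglial genes, were called in neither genotype, with -0.45 ± 0.22 and -0.20 ± 0.58 in WT. Cx3cr1, the fractalkine receptor, was at 209 CPM in WT ns 8 against 2781 to 3808 CPM in the other 5 ns samples, and without the 3 samples its difference was -0.34, also not called. The list's higher members in WT were Gpr84, a receptor of medium-chain fatty acids, C3ar1 and Slc24a3, at 3.53 ± 0.27, 2.62 ± 0.54 (1.86 without WT LPS 7) and 0.78 ± 0.23, of which Gpr84 and C3ar1 rose in KO (edgeR adjusted p = 1.2e-08 and 0.0019).

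Transcription factors of microglial identity changed in each direction: of 20, 8 were lower and 2 higher in WT (8 and 4 without WT LPS 7), and 6 fell and 2 rose in KO. Smad3, which carries the TGF-β signal, was at 163, 216 and 266 CPM and 42.6, 86.03 and 134 CPM, lower by 1.31 ± 0.24, and fell by 0.75 ± 0.25 in KO (edgeR adjusted p = 0.038). Sall1 was at 1033, 1227 and 1714 CPM and 113, 679 and 844 CPM, lower by 1.16 ± 0.35 in WT, with -0.48 ± 0.34 in KO (edgeR adjusted p = 0.36). Cebpb, a factor of the acute phase, was at 36.1, 50.2 and 91.7 CPM and 171, 198 and 238 CPM without overlap, higher by 1.89 ± 0.20, and rose by 1.67 ± 0.28 in KO (edgeR adjusted p = 3.7e-04), while Cebpa was lower by 1.31 ± 0.20 and fell by 1.16 ± 0.27 (edgeR adjusted p = 0.0051). The myeloid factors Spi1 and Irf8 were called in neither genotype. Of 16 genes of the TGF-β list, 1 was higher and 3 lower in WT (1 and 5 without WT LPS 7). In KO, 1 of 15 rose and 2 fell. Over all genes tested the shares were 14.3% and 17.3% in WT and 12.0% and 11.9% in KO. The only higher member was Tgfbi, by 1.38 ± 0.33 in WT and by 1.65 ± 0.23 in KO (edgeR adjusted p = 5.4e-05).

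Several further genes with the largest decreases belong to no list of microglial identity. S1pr1, the sphingosine-1-phosphate receptor, was at 38.2, 63.2 and 72.2 CPM and 1.84, 3.77 and 7.42 CPM, lower by 3.75 ± 0.33, and fell by 3.08 ± 0.19 in KO (edgeR adjusted p = 1.2e-08). Gprasp2, a sorting protein for G-protein-coupled receptors, was at 20.5, 35.6 and 37.0 CPM and 0.476, 1.27 and 1.98 CPM, lower by 4.70 ± 0.36, and fell by 4.07 ± 0.41 in KO (edgeR adjusted p = 2.1e-06). The matrix protease Adamts16, the inhibitory lectin Siglecg and the myosin Myo18b were lower by 5.64 ± 0.77 (6.66 without WT LPS 5), 4.07 ± 0.45 (3.35 without the 3 samples) and 3.74 ± 0.49 and fell by 3.70 ± 0.56, 2.60 ± 0.31 and 2.98 ± 0.56 in KO (edgeR adjusted p at most 8.9e-04). Every LPS sample lay below every ns sample for these 5 genes.

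Receptors for purines, chemoattractants and opsonised particles changed in each direction. Over all genes tested, 14.3% were higher and 17.3% lower in WT, and 12.0% rose and 11.9% fell in KO. Of 24 purinergic and ion channel genes 6 were higher and 5 lower in WT, and 7 rose and 6 fell in KO. P2rx1, an ATP-gated channel, was at 17.97, 20.7 and 28.2 CPM and 3.84, 5.27 and 8.79 CPM, lower by 2.01 ± 0.21, and fell by 1.71 ± 0.20 in KO (edgeR adjusted p = 9.2e-06). P2rx4 and the UTP receptor P2ry2 were higher by 0.98 ± 0.17 and 2.29 ± 0.36 (2.97 without the 3 samples) and rose in KO (edgeR adjusted p = 1.0e-04 and 7.7e-05). Entpd1 (CD39), which removes extracellular ATP, was lower by 1.59 ± 0.21 and fell by 1.30 ± 0.18 in KO (edgeR adjusted p = 6.2e-05). Of 22 chemokine and chemoattractant receptors 5 were higher and 7 lower in WT, and 4 rose and 8 fell in KO. Fpr1, the formyl peptide receptor, was at 2.42, 8.12 and 36.9 CPM and 56.9, 158 and 1022 CPM, higher by 4.06 ± 0.91 (3.31 without WT LPS 7, 4.89 without WT ns 3), and rose by 2.55 ± 0.60 in KO (edgeR adjusted p = 0.0051). Ccr2, the monocyte receptor, and Ccr3 were lower by 1.65 ± 0.45 and 3.57 ± 0.58 and fell in KO (edgeR adjusted p = 0.0035 and 1.8e-04). Ccr1l1 was at 1.21 CPM in WT LPS 5 against 271.6 to 531.8 CPM in the other LPS samples, and at most at 8.50 CPM in every KO library, where it has close relatives in the same gene cluster.

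Of 31 scavenger and phagocytic receptors, 13 were higher and 6 lower in WT, and 8 rose and 6 fell in KO. Fcgr4, an activating Fc receptor, was at 15.7, 19.7 and 40.1 CPM and 189, 328 and 1625 CPM, higher by 4.44 ± 0.49, and rose by 3.62 ± 0.38 in KO (edgeR adjusted p = 4.0e-06). Clec4a1 was higher by 3.83 ± 0.43 and rose by 3.24 ± 0.22 in KO (edgeR adjusted p = 3.9e-08). Siglec1, an interferon-induced lectin, was at 27.9 CPM in WT LPS 7 against 225 to 452.8 CPM in the other LPS samples, was higher by 2.79 ± 0.54 in WT, or 3.13 without WT LPS 7, and rose by 3.11 ± 0.64 in KO (edgeR adjusted p = 0.0020). The mannose receptor Mrc1, a marker of border macrophages, was at 136, 252 and 414 CPM and 36.2, 60.4 and 130.7 CPM. It was lower by 2.07 ± 0.23 and fell by 1.51 ± 0.22 in KO (edgeR adjusted p = 9.5e-05). The summed border macrophage markers were at 2351 to 3296 CPM in ns and 3703 to 4444 CPM in LPS, except for WT LPS 7 at 935.1 CPM. Of the 12 markers, 1 was higher and 3 lower in WT (median -0.932), or 3 and 5 without WT LPS 7. The sum thus does not stand for most of the markers. In KO, 2 of them rose and 4 fell (median -0.368). Cd36 was lower by 1.95 ± 0.28 and fell by 2.05 ± 0.41 in KO (edgeR adjusted p = 0.0017). In the complement list of 16 genes, 7 were higher and 2 lower in WT and 8 rose and 0 fell in KO, led in WT by the factor B gene Cfb at 3.92 ± 0.43 and by the anaphylatoxin receptors C3ar1 and C5ar1 at 2.62 ± 0.54 (1.86 without WT LPS 7) and 2.11 ± 0.19 (KO edgeR adjusted p = 7.5e-07, 0.0019 and 4.3e-08).

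The disease-associated microglia signature did not move as a block: of 23 genes 5 were higher and 5 lower in WT (7 and 8 without WT LPS 7), and 6 rose and 6 fell in KO. Osteopontin, Spp1, was at 5.80, 8.94 and 11.5 CPM and 23.7, 52.95 and 171 CPM, higher by 2.85 ± 0.39, and rose by 2.11 ± 0.56 in KO (edgeR adjusted p = 0.010). The protease Ctsl was at 450.3, 589.6 and 649 CPM and 1808, 2208 and 8224 CPM, higher by 2.42 ± 0.38 (1.80 without the 3 samples), and rose by 1.43 ± 0.35 in KO (edgeR adjusted p = 0.0066). Apoe was lower by 1.19 ± 0.21 in WT, with -0.59 ± 0.29 in KO (edgeR adjusted p = 0.17), and Igf1 was lower by 2.97 ± 0.51 and fell by 2.84 ± 0.33 in KO (edgeR adjusted p = 1.0e-05). Axl and Tyrobp were called in neither genotype. Of 30 adhesion and matrix genes 7 were higher and 7 lower in WT (14 and 8 without the 3 samples), and 11 rose and 5 fell in KO. Over all genes tested the shares were 14.3% and 17.3% in WT and 12.0% and 11.9% in KO. Without the 3 samples 3526 of all 15034 genes were higher and 3596 lower. Plau, the urokinase protease, was at 92.0, 101 and 106.6 CPM and 19.5, 41.6 and 65.1 CPM without overlap, lower by 1.26 ± 0.25, and fell by 0.89 ± 0.27 in KO (edgeR adjusted p = 0.024).

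Of 25 genes of oxidative defence, iron handling and stress, 15 were higher and 1 lower in WT (median 0.889), or 17 and 3 without the 3 samples, and 11 rose and 3 fell in KO (median 0.834). Sod2, the mitochondrial superoxide dismutase, was at 19.5, 22.2 and 29.9 CPM and 95.1, 248 and 754 CPM, higher by 3.59 ± 0.46, and rose by 2.33 ± 0.21 in KO (edgeR adjusted p = 8.3e-07). The cystine carrier Slc7a11 was at 3.34, 5.47 and 11.7 CPM and 8.10, 30.6 and 119.3 CPM with overlap, higher by 2.77 ± 0.63, with 0.96 ± 0.36 in KO (edgeR adjusted p = 0.062). The ferritin gene Fth1 was at 687, 774 and 1092 CPM and 2922, 3905 and 5506 CPM and the iron importer Slc11a2 was higher by 2.19 ± 0.25, while the exporter ferroportin, Slc40a1, was at 219.8, 227 and 268 CPM and 30.7, 50.2 and 67.3 CPM. In KO, Fth1 rose by 1.98 ± 0.15, Slc11a2 rose by 1.77 ± 0.15 and Slc40a1 fell by 2.09 ± 0.23 (edgeR adjusted p = 8.5e-08, 4.4e-07 and 5.4e-06). Heme oxygenase Hmox1 was higher by 1.34 ± 0.14 and rose by 1.23 ± 0.13 in KO (edgeR adjusted p = 4.2e-06).

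Genes of sugar and lipid metabolism changed in each direction. Of 28 genes of glycolysis and hypoxia, 8 were higher and 4 lower in WT (10 and 7 without WT LPS 7), and 8 rose and 1 fell in KO. The lysosomal sugar transporter Slc2a6 was at 5.18, 11.2 and 21.9 CPM and 38.6, 60.3 and 76.6 CPM, higher by 2.19 ± 0.37, and rose by 3.14 ± 0.34 in KO (edgeR adjusted p = 4.6e-06). Pgk1 was higher by 1.37 ± 0.39 in WT, no longer called without WT ns 6 (1.25) or without WT ns 7 (1.25), and its KO value was -0.75 ± 0.27 (edgeR adjusted p = 0.055). Gapdh, Pkm and Eno1 were higher by 1.11 ± 0.18, 1.05 ± 0.21 and 0.71 ± 0.16 and rose in KO (edgeR adjusted p at most 3.3e-04), and Vegfa was lower by 2.31 ± 0.35 in WT, with -0.84 ± 0.45 in KO (edgeR adjusted p = 0.21). Of 26 genes of cholesterol and lipid handling, 8 were higher and 2 lower in WT (14 and 2 without WT LPS 7), and 11 rose and 1 fell in KO. Cholesterol 25-hydroxylase, Ch25h, was at 0.609, 1.39 and 3.13 CPM and 2.65, 20.9 and 184 CPM with overlap, higher by 4.34 ± 0.89 (3.40 without WT LPS 7), and rose by 3.02 ± 0.51 in KO (edgeR adjusted p = 3.7e-04). The lipid droplet coat protein Plin2 was at 30.8, 41.1 and 53.5 CPM and 92.4, 150.2 and 279 CPM, higher by 1.98 ± 0.27, and rose by 1.79 ± 0.24 in KO (edgeR adjusted p = 4.8e-05).

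For ribosomal and respiratory chain genes the size of the WT difference depended on WT LPS 7. Every LPS sample lay above every ns sample for 49 of the 61 ribosomal genes and 30 of the 49 respiratory chain genes. Over all genes tested this share was 11.5%. Of 61 genes of the cytosolic ribosome, 28 were higher and 0 lower in WT (median 1.15), and without WT LPS 7 these were 55 higher and 0 lower (median 0.549). In KO 9 of 61 rose and 0 fell (median 0.176). Of 49 nuclear genes of the respiratory chain, 24 were higher in WT (median 0.887) and 39 without WT LPS 7 (median 0.491), and 7 rose in KO (median 0.262), with 0 lower in each. Rpsa and Rpl35 were at 2033 and 762 CPM in WT LPS 7, and Rpl35 was higher by 1.66 ± 0.51 (0.87 without WT LPS 7). Ndufa4 and Cox7b, subunits of cytochrome c oxidase, were higher by 1.66 ± 0.51 (0.86 without WT LPS 7) and 1.61 ± 0.50 (0.84 without WT LPS 7). The 3 genes Rpl35, Ndufa4 and Cox7b each lost the call without WT ns 6, without WT ns 7 or without WT ns 8, at values of 1.49 to 1.56, and none passed in KO (edgeR adjusted p = 0.39, 0.61 and 0.42).

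Cell cycle genes were largely not called in WT, where 3 of 34 were higher and 1 lower (median -0.258), 7 and 1 without WT LPS 7, and 14 and 1 without the 3 samples, and 12 of 33 rose in KO and 0 fell (median 0.643). Cdkn1a, the p21 inhibitor, was at 11.6, 13.9 and 20.1 CPM and 29.2, 40.5 and 97.1 CPM, higher by 1.86 ± 0.32, and rose by 2.42 ± 0.42 in KO (edgeR adjusted p = 4.8e-04). The proliferation marker Mki67 was at 12.7, 25.3 and 169 CPM and 10.6, 14.7 and 38.5 CPM, and its highest ns sample was WT ns 8. Pcna was higher by 1.27 ± 0.43 (0.66 without WT LPS 7) and lost the call when any of 8 other samples was left out (WT LPS 2, 3 and 4 and WT ns 2, 4, 6, 7 and 8), at values of 1.13 to 1.38. Of the helicase subunits, Mcm2 was not called in WT, at 9.61, 14.4 and 28.7 CPM in ns and 17.5, 33.9 and 67.9 CPM in LPS, and rose by 1.92 ± 0.32 in KO (edgeR adjusted p = 3.3e-04). The difference between genotypes was not tested.

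Genes known to respond to glucocorticoids, hormones that systemic inflammation raises, were mostly higher in WT and split in KO: of 14, 8 were higher and 2 lower in WT (median 1.33), or 9 and 4 without the 3 samples, and 3 rose and 3 fell in KO (median 0.795). Klf9 was at 2.17, 2.72 and 3.37 CPM and 8.51, 23.6 and 57.5 CPM, higher by 3.37 ± 0.48, and rose by 2.94 ± 0.65 in KO (edgeR adjusted p = 0.0032). Fkbp5, a chaperone of the receptor, was at 90.3, 120.3 and 244 CPM and 197, 599.7 and 966 CPM, higher by 1.99 ± 0.41, with 1.01 ± 0.37 in KO (edgeR adjusted p = 0.057). Zbtb16 ran from 0.704 to 165.5 CPM over the LPS samples, was higher by 3.87 ± 1.25 (2.30 without WT LPS 8+9) and lost the call when any of 8 samples was left out (WT LPS 2, 3 and 8+9 and WT ns 2, 3, 4, 6 and 7), at values of 2.30 to 4.06. The receptor gene Nr3c1 was lower by 0.67 ± 0.16 and fell by 0.72 ± 0.18 in KO (edgeR adjusted p = 0.0066). Immediate early genes, which tissue dissociation can raise, showed 6 of 27 higher and 5 lower in WT (11 and 7 without the 3 samples). The all-gene shares in WT were 14.3% higher and 17.3% lower. Fos and Egr1 on the immediate early list were called in neither genotype. Klf4 on that list was higher by 2.02 ± 0.39 and rose by 1.95 ± 0.56 in KO (edgeR adjusted p = 0.019).

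Granule genes of neutrophil and eosinophil precursors were among the largest WT decreases, and they followed WT ns 3 and WT ns 8. Myeloperoxidase Mpo was at 627 and 517 CPM in these samples, with a median of 33.9 CPM over the 6 ns samples, against 0.965 to 6.19 CPM in the LPS samples. Its WT difference was -5.91 ± 1.32 (-4.02 without WT ns 3, -4.96 without WT ns 8). Neutrophil elastase Elane was at 266 and 201 CPM in the same samples, with a WT difference of -5.50 ± 1.51 (-6.21 without WT LPS 7, -3.40 without WT ns 3, -4.69 without WT ns 8). Eosinophil peroxidase Epx was at 90.2 and 168 CPM there, a difference of -5.16 ± 1.37 (-5.76 without WT LPS 4, -3.65 without WT ns 3, -4.05 without WT ns 8). Ficolin Fcnb was at 129 and 89.3 CPM, a difference of -4.98 ± 1.46 (-6.03 without WT LPS 7, -3.08 without WT ns 3, -4.17 without WT ns 8). The groups overlapped for all 4 genes, and Elane, Epx and Fcnb were no longer called without WT ns 3, nor Elane and Fcnb without WT ns 8, nor Fcnb without WT LPS 2 (-4.68) or without WT LPS 3 (-4.78). Their differences with WT ns 3 and WT ns 8 left out together are not given here, so the part of each decrease that remains is not shown. None of the 4 passed in KO (edgeR adjusted p = 0.60, 0.37, 0.69 and 0.090). Of 15 neutrophil markers, 4 were lower and 0 higher in WT, and 1 rose in KO. Without the 3 samples 3 were lower and 6 higher in WT.

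The response was compared between the library sets. In the test of set by LPS, 0 of 14724 genes passed (0.0%) by edgeR, with 136 at an unadjusted p under 0.05, and DESeq2 also called 0, with 249. Among the 6 genes with the smallest p was Mmp12, macrophage elastase, with an interaction of 3.46 ± 1.03 (edgeR adjusted p = 0.9996), where WT LPS 7 had 1.97 CPM and the other LPS samples 0.0536 to 0.419 CPM. Akap3, which codes for a kinase anchoring protein, had an interaction of -1.83 ± 0.51 (edgeR adjusted p = 0.9996). The set term itself was called for 8 genes (0.0543%), 2 higher (0.0136%) and 6 lower (0.0407%) in set 2, and Xist and the Y-linked genes Kdm5d, Ddx3y, Uty and Eif2s3y were among them. In set 1 by itself 4531 genes were called and in set 2 by itself 64, where WT LPS 7 and WT ns 8 lie.

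**Figure D5:**
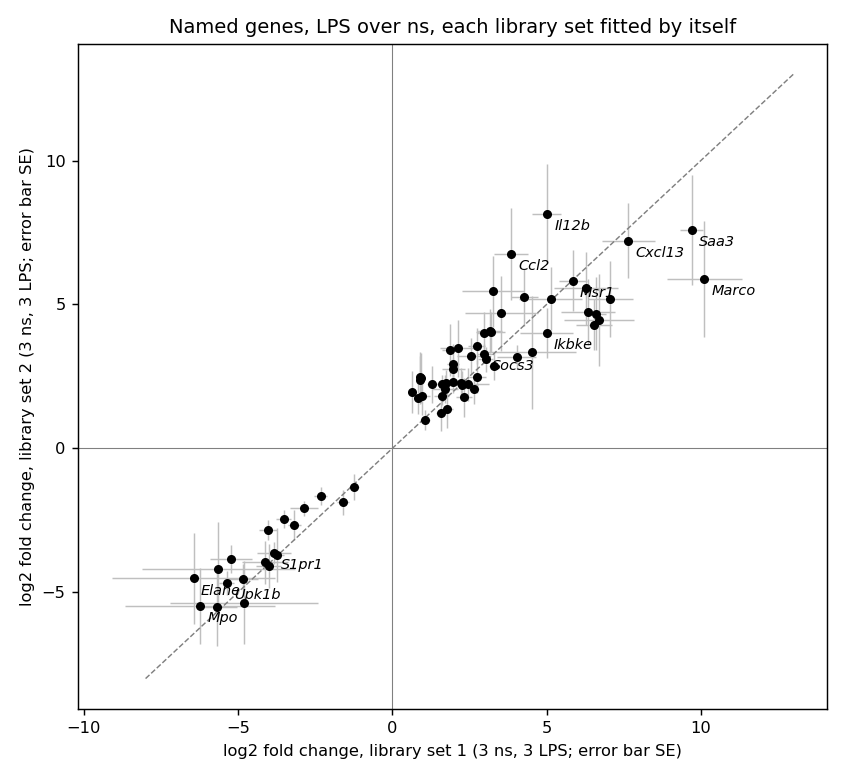
Log2 fold change of the named genes in library set 1 (x axis) and set 2 (y axis), each from 3 LPS against 3 ns samples, with bars of 1 standard error. The dashed line marks equal values, and every point has the same sign in both sets. These genes were chosen from the WT fit of both sets together. A shared sign was thus favoured by the choice and is no test.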

How the data were processed

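The values are raw read counts per gene, deposited by the authors in 1 table of 53278 genes and 33 libraries. The submitters' processing notes name FastQC, STAR 2.6.1, featureCounts, Subread, DESeq2 and the GRCm39 build, and the strand setting is not given in the sources used here. WT LPS 8 and 9 were summed, and all 32 resulting samples were scaled together by TMM to give the CPM levels. Fits used edgeR 4.0.16 in R 4.3.3 (limma 3.58.1): filterByExpr, TMM, the robust quasi-likelihood test and library set as a covariate, with Benjamini-Hochberg adjusted p under 0.05 as the call. WT and KO were fitted separately. DESeq2 1.42.0 and other scalings, filters, covariates and left-out samples were tried as alternatives.

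The samples and all 41 gene lists were chosen with earlier results of these data known. Named genes are the 12 highest and 12 lowest called WT genes with a mean of at least 20 CPM in their higher group, the 2 called members of each list with the largest change, Saa3 and P2ry12, and the 6 genes of smallest p for the set and interaction terms. Other list members are named to give their values. A few genes that the rule or a list would name are not reported here. Same-numbered samples did not all deviate together: their correlations ran from -0.201 to 0.176 in WT (mean -0.0502, against 0.0209 for different numbers) and from -0.542 to 0.807 in KO (mean 0.172, against -0.0381), so the numbers were not used as pairs. Promoters are those of RefSeq on GRCm38.p6, matched by symbol for 10309 of 14724 genes, 58 of the 71 named genes of the LPS contrast among them. Of the lists, 16 of 21 NF-κB and 30 of 39 interferon genes have a promoter in the table. Shares of matches by gene list are void and not given, since the lists were chosen with earlier results of these data known.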

Additional observations from a re-analysis of the deposited data

Results flagged for a closer look

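Of 164 groups of 6 samples examined among the named genes, 26 held a highest or lowest sample whose gap to the nearest other, as a share of the whole range of log2(CPM + 1), passed Dixon's limit. Chance flags about 1 in 20 groups. The sample was WT LPS 7 in 18 groups, WT ns 8 in 7 and WT LPS 2 in 1.

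WT ns 8 stood above the other ns samples for genes that were high after LPS: Saa3 at 64.3 CPM, Marco at 64.5 CPM, Msr1 at 67.2 CPM, Acod1 at 11.2 CPM, Strip2 at 3.37 CPM, Plet1 at 2.34 CPM and Susd2 at 1.45 CPM. Its Saa3 was 3.52% of the median LPS sample, its Marco 6.2%, its Acod1 10.9% and its Strip2 26.9%. WT LPS 2 was the lowest LPS sample for Ltc4s, at 14.5 CPM.

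WT LPS 7 was the highest LPS sample for Saa3 at 9720 CPM, Tlr2 at 4847 CPM, C3ar1 at 6465 CPM, Ctsl at 8224 CPM, P2ry12 at 1063 CPM and Psme2 at 449.9 CPM. The same held for Pgk1 at 248 CPM, Pcna at 409 CPM, Rpsa at 2033 CPM, Rpl35 at 762 CPM, Ndufa4 at 365 CPM, Cox7b at 296 CPM and Mmp12 at 1.97 CPM. It was the lowest LPS sample for Adamtsl4 at 32.3 CPM, Bcl3 at 20.2 CPM, Tgfbi at 130.3 CPM, Klf4 at 10.3 CPM and Myo18b at 0.844 CPM.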

How the results depend on the processing

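The WT count of 4644 genes ranged from 3514 to 7381 when each sample was left out in turn, the upper value without WT LPS 7, and was 7122 without WT LPS 7, WT ns 3 and WT ns 8. It was 2621 with a log2 fold change of at least 1 required as well, 64 in library set 2 by itself, and 0 with all WT libraries as labelled by edgeR, with 2181 at an unadjusted p under 0.05. With the replicate number as a block, though the numbers do not pair the samples, the counts were 2447 in WT and 3960 in KO. The KO count of 3534 was 1950 with the fold requirement, 7865 in set 1 by itself and 339 in set 2 by itself. The set term gave 13 genes with DESeq2 against 8, and 7 to 11 with a sample left out. Other scalings, filters and tools kept the WT count between 3399 and 5665. Of the named genes, 9 lost the WT call in at least 1 of the 12 left-out settings. Among all comparisons of a WT gene with an alternative, 205 lost the call, against 1499 that kept direction and call. Of the 205, 71 came from all WT libraries as labelled, where every named gene of the LPS contrast lost it, and 61 from set 2 by itself. In KO, Mpo changed sign in set 2 by itself, at 0.77. The cause of these changes was not tested, other than that the set and left-out settings hold fewer samples. The biological coefficient of variation was 37.5% in WT, with 6 samples a group, and 41.6% in KO, with 8, and no smallest detectable change was computed, so a gene that was not called may still have changed.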

Other observations

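Marker lists of cell types other than myeloid cells were summed in each kept sample. The B cell markers, given with the class II genes, were the highest of these sums in every ns sample. Erythrocyte markers lay at 37.8 to 458.4 CPM in ns and 28.2 to 189.9 CPM in LPS, oligodendrocyte markers at 161.0 to 182.7 CPM and 107.3 to 137.6 CPM, and T and NK cell markers at 88.8 to 162.2 CPM and 48.0 to 202.3 CPM. Summed neuron markers lay at 12.5 to 22.5 CPM in ns and 7.24 to 21.4 CPM in LPS, and endothelial and pericyte markers at 53.9 to 66.1 CPM and 19.4 to 59.6 CPM. Astrocyte markers lay at 118.2 to 181.7 CPM and 113.8 to 144.6 CPM, nearly all from Slc1a3, a glutamate transporter, while the astrocyte water channel Aqp4 reached at most 1.18 CPM. Gfap, the intermediate filament of astrocytes, was at 0.138, 0.228 and 0.475 CPM (lowest, median and highest) in ns and 0.674, 1.14 and 1.56 CPM in LPS without overlap, and rose by 1.63 ± 0.45 in KO (edgeR adjusted p = 0.014). Camk2a, a kinase of neurons, was at 7.69, 9.27 and 11.2 CPM in ns and 0.774, 2.42 and 3.96 CPM in LPS, and fell by 1.72 ± 0.33 in KO (edgeR adjusted p = 0.0011). Cd4, which T cells and some macrophages carry, was at 4.46, 5.68 and 10.8 CPM in ns and 0.107, 0.630 and 3.91 CPM in LPS and fell by 2.22 ± 0.30 in KO (edgeR adjusted p = 4.1e-05), while the T cell genes Cd3e and Cd3g stayed below 1 CPM.

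Of the adhesion and matrix genes not named above, 3 are given here, chosen after their values were seen. Itga5, the fibronectin receptor, was at 45.6, 52.1 and 59.6 CPM in ns and 60.6, 207 and 292 CPM in LPS and rose by 2.21 ± 0.48 in KO (edgeR adjusted p = 0.0032). The membrane protease Mmp14 was at 44.56, 49.99 and 57.98 CPM in ns and 156, 221 and 249 CPM in LPS and rose by 2.46 ± 0.37 in KO (edgeR adjusted p = 1.3e-04). Selplg, the P-selectin ligand, was at 2570.0, 3287 and 5248 CPM in ns and 729, 1124 and 1583 CPM in LPS and fell by 1.17 ± 0.21 in KO (edgeR adjusted p = 4.9e-04). The groups did not overlap for any of these 3 genes.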
